A study of Mus musculus with 24 samples.

Results

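The control region of mouse mtDNA, nt 15423 to 16299 of chrM in the mm10 (GRCm38) assembly, is the longest stretch of the circle that holds no gene. Its cytosines were taken as every listed cytosine of both strands within these coordinates, 323 of the 5829 cytosines listed per library, and all of the 323 cytosines that the reference has there are listed. The region was split at nt 16035, where conserved sequence block 1 begins. The part from nt 15423 to 16034 is 612 nt long, contains the extended termination-associated sequences (ETAS) and is called the ETAS part here. Its 239 listed cytosines are 154 of the L strand and 85 of the H strand. The part from nt 16035 to 16299 is 265 nt long, contains the conserved sequence blocks (CSB) and the promoters and is called the CSB part. Its 84 listed cytosines are 65 of the L strand and 19 of the H strand.

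The series measured bisulfite unconversion in 24 PBAT libraries (post-bisulfite adapter tagging adds adaptors by random priming once the bisulfite reaction is over). Native mtDNA came from mitochondria purified over sucrose gradients and treated with nuclease, either from E14 ESCs, a wild-type mouse embryonic stem cell line grown on irradiated feeder cells in 2i-LIF medium (3 preparations), or from the brain (2 preparations) or liver (2 preparations) of wild-type C57BL/6J mice. The sources used here give neither the age of the mice nor how many mice went into a preparation, nor how far feeder cells contributed to the ESC preparations. Synthetic mtDNA is a PCR product of nearly the whole mtDNA made with unmodified nucleotides, so it is free from 5mC, and it is a single preparation. All mtDNA was linear, the native DNA by a BglII cut upstream of the control region, and all samples carried unmethylated λDNA, whose reads were not analysed here. Bisulfite treatment lasted 5, 15, 40 or 60 min for synthetic mtDNA, for ESC preparations 1 and 2 and for the 1st preparation of each tissue. The 2nd preparation of brain and of liver was treated for 60 min, and ESC preparation 3 for 60 and 90 min. Each preparation gave 1 library per duration, which makes 4 native libraries and 1 synthetic library after 5, 15 and 40 min, and 7 and 1 after 60 min. Preparations are the replicates, numbered as in the plots, and synthetic mtDNA has none.

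The control region carries the signals for replication and transcription of mtDNA. In many tissues H-strand synthesis that starts near the conserved sequence blocks stops at the termination-associated sequences, which leaves a short DNA, 7S DNA, of H-strand sequence paired with the L strand in a displacement loop. Bisulfite converts unmodified cytosine to uracil in single-stranded DNA, whereas 5mC and cytosines that the reagent does not reach stay as cytosine, so that the unconversion rate is an upper limit for 5mC and not a measure of it alone. For L-strand reads left unconverted, the paper also proposes a possible artefact of library synthesis. Copies of H-strand fragments without cytosine, thus from guanine-free runs of the L strand, could align to the L strand. Guanines of such fragments would then be scored as unconverted cytosines, which was not tested here.

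Stretches that carry the results are shown first, each read 5′ to 3′ on the L strand of the RefSeq reference (GRCm38). The 1st stretch, chrM:15524-15592, contains a pair of runs without guanine that stayed unconverted in every library from 5 to 60 min, and capitals mark its 11 cytosines. The stretch holds 1 guanine, between the runs, so its label refers to the runs and not to the whole stretch.
Guanine-free stretch of the ETAS part: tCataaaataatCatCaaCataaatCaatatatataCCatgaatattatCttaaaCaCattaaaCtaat
Further along the ETAS part, chrM:15894-15979 holds all other L-strand cytosines of this part that were covered in every library after 60 min. It has 19 cytosines (capitals) and 18 guanines, and it was converted almost completely.
Converted stretch of the ETAS part: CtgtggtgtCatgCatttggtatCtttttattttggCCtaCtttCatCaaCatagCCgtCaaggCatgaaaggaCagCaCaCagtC
The CSB part begins with chrM:16035-16131, in which capitals mark conserved sequence blocks 1, 2 and 3 as RefSeq annotates them. Block 2 and its surroundings form the longest guanine-free run of the control region, 52 nt.
Conserved sequence blocks: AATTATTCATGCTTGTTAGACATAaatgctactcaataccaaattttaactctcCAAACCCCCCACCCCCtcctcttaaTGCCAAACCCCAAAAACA
The last 64 nt, chrM:16236-16299, hold the only control region cytosines called between native and synthetic mtDNA by Fisher's exact test on summed reads. A test that carries the variation between preparations (limma) called none. Capitals mark the 15 cytosines of this stretch.
End of the CSB part: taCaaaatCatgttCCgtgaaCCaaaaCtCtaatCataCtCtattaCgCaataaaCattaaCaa

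For each cytosine, the deposited values are its coverage in reads and the percent of them that kept a cytosine. Libraries held 10992 to 254607 calls in the control region, with a median of 47908. Sites with fewer than 10 reads in a library were not used there, and libraries were compared on sites covered in all libraries of a duration. After 60 min the median coverage of the L strand was 2 to 35 reads in the ETAS part and 2 to 94 in the CSB part, against 138 to 817 and 27 to 283 reads on the H strand. The shared L-strand sites after 60 min were therefore few, 25 of 154 in the ETAS part and 8 of 65 in the CSB part, and brain preparation 2, which covered 28 and 8 sites, set this number. The H strand kept 83 of 85 and 16 of 19 sites. Taking 3 unconverted reads as the limit, the lowest rate that the median coverage of used sites could show was 7.89 to 21.4% on the L strand of the ETAS part and 0.367 to 2.14% on its H strand. Floors and intervals cover counting error only, since PCR copies of a molecule cannot be told apart, and neighbouring cytosines share reads.

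After 60 min, the L strand of the ETAS part had a far higher mean rate than that of the CSB part on shared sites, and 6 cytosines made the difference. The study left out reads in which nearly all cytosines were unconverted, whereas the deposited rates appear to include them. Without such reads, the paper reports almost complete conversion of the control region's L strand for this duration, in native and synthetic mtDNA. The high L-strand rates given here may therefore rest largely on such reads, and their share was not tested. For the 25 sites of the ETAS part, the mean was 23.6% and 23.9% in brain preparations 1 and 2, 24.3% and 24.1% in liver preparations 1 and 2, 24.2%, 24.1% and 24.2% in ESC preparations 1, 2 and 3, and 24.2% in synthetic mtDNA. Over the 8 sites of the CSB part it was 1.61% and 1.2% in brain, 0.725% and 0.963% in liver, 1.4%, 0.375% and 1.34% in ESCs and 3.75% in synthetic mtDNA. No library of either kind of DNA had a CSB value near its ETAS value, and the native preparations lay within 1 percentage point of each other in the ETAS part. The native means were 24.0% ± 0.215 (SD, n = 7) and 1.09% ± 0.429 (SD, n = 7), and the difference within a library was 23.0 points (7 of 7 above 0, exact sign-flip permutation test, two-sided, p = 0.0156, the smallest that 7 preparations allow). After Benjamini-Hochberg adjustment over the 8 comparisons of the parts, by strand and duration, the exact permutation p was 0.125. Synthetic mtDNA, which has no 5mC, showed a difference of 20.4 points.

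The 6 cytosines are nt 15542, 15549, 15560, 15561, 15573 and 15579, all in the pair of guanine-free runs printed above. Among them, the cytosines at nt 15549 and 15560 were unconverted in all reads of all 8 libraries, and nt 15561 in all but brain preparation 1, where the rate was 97.2%. The lowest single value of the 6 sites was 92.9%, in brain preparation 2, and they supplied 98.4 to 99.8% of the summed rates of the 25 sites. The other 19 sites, all within nt 15894 to 15979, had means of 0.0789 to 0.521% per library and no value above 3.8%. Without sites of 50% or more the ETAS part was lower than the CSB part, with a difference of -0.845 points (exact sign-flip permutation p = 0.0156). The same happened with a coverage minimum of 20, which left 18 and 8 sites and a difference of -0.832 points. The order of the parts on the L strand thus depended on whether these few cytosines entered the mean.

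**Figure D1:**
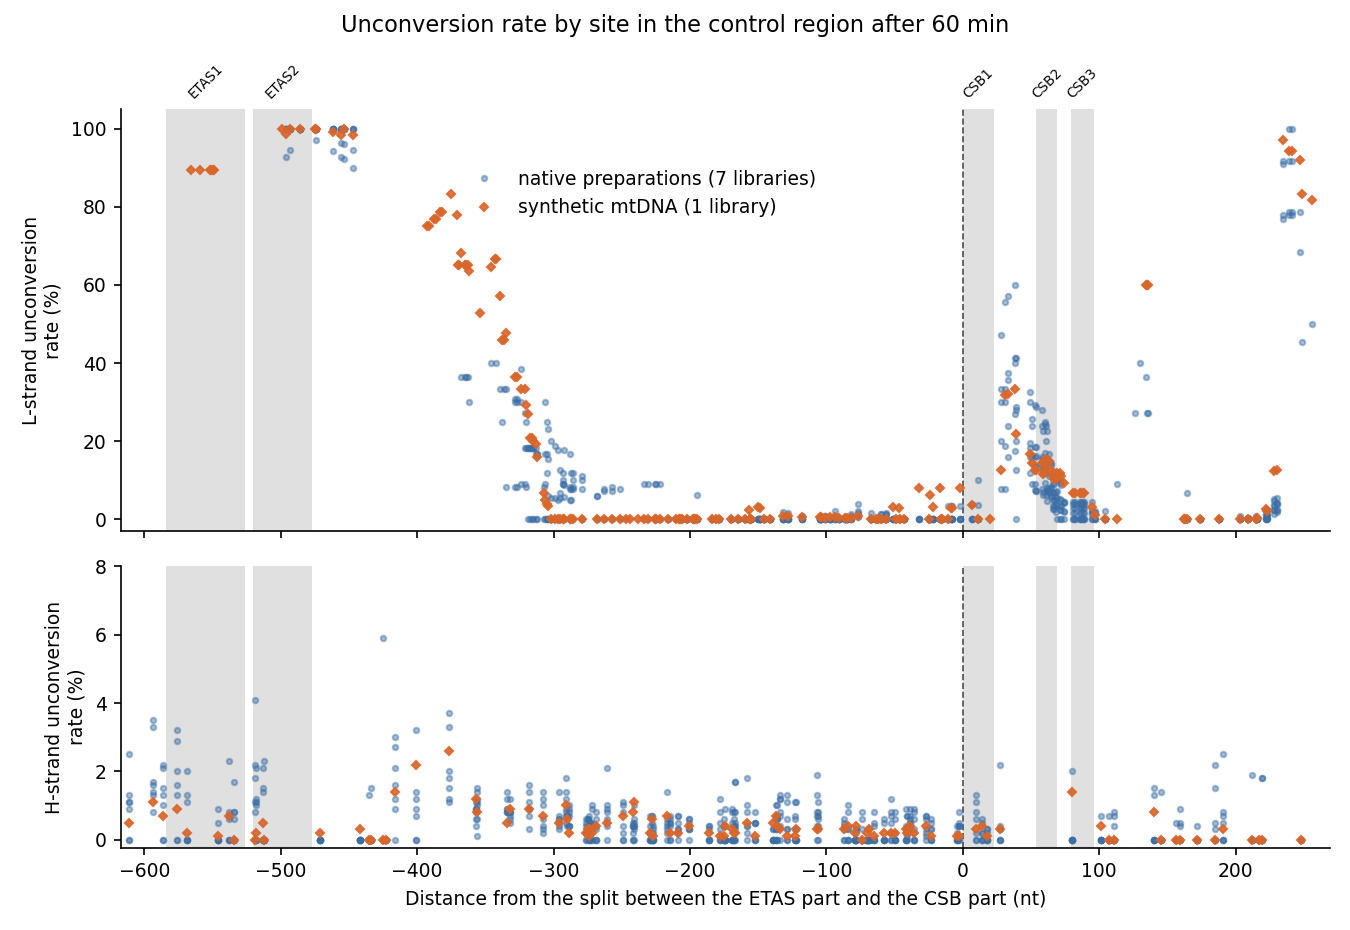
Unconversion rate (%) of each cytosine with coverage of at least 10 after 60 min, against its distance in nt from the split between the ETAS part (left) and the CSB part (right), for the L strand (top) and the H strand (bottom, with a shorter axis). Circles are the 7 native libraries, diamonds are synthetic mtDNA, and grey bands are the annotated ETAS and CSB elements; L-strand values are near 100% in and just after ETAS2, lower and widely spread up to about 300 nt before the split and mostly near 0 from there to the split, while no H-strand value exceeds 5.9%.

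The set of sites a library covered moved its mean more than the kind of mtDNA did. When each library was averaged over all ETAS sites it covered, the L-strand means spread from 8.49% (ESC preparation 1, 100 sites) to 31.4% (brain preparation 2, 28 sites), and synthetic mtDNA had 25.8% over 133 sites. On the 43 sites that remained shared when brain preparation 2 was left out, the 6 native preparations lay between 13.7 and 14.1%, and synthetic mtDNA at 14.3%. Without that library the CSB part had 42 shared sites, with a native mean of 5.93% ± 2.48 (SD, n = 6; 3.19 to 9.97%) and 7.67% in synthetic mtDNA, so the difference between the parts without this library was 8.09 points. On each library's own sites the difference was 5.35 points and was not larger than the spread between preparations (exact sign-flip permutation p = 0.328).

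**Figure D2:**
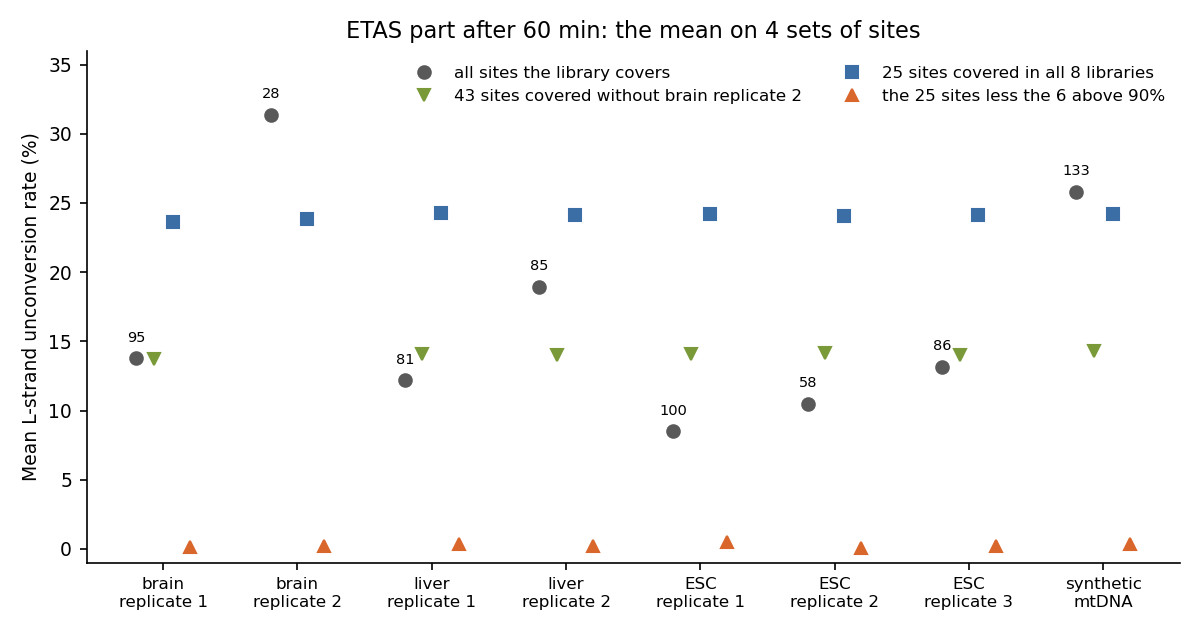
Mean L-strand unconversion rate (%) of the ETAS part after 60 min in each of the 8 libraries, on 4 sets of sites. Circles are all sites the library covers, with their number above, and spread from 8.49 to 31.4%; triangles pointing down are the 43 sites shared without brain replicate 2, squares the 25 sites shared by all 8 libraries, and triangles pointing up those 25 sites less the 6 sites above 90%, all under 1%.

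Because synthetic mtDNA covered more L-strand sites, its profile fills parts of the ETAS part that the native libraries left nearly empty. Over nt 15635 to 15734, which holds 40 L-strand cytosines, the synthetic mean after 60 min was 47.1%, and 5 of 7 native preparations, with 3 to 27 covered sites each, had 0 to 25.3%. After 40 min, in the same window, synthetic mtDNA had 17.7% and the 4 native preparations 7.41 to 51.5%, with a mean of 35.5%. Over nt 15735 to 15834 synthetic mtDNA was at 0 and 6 native preparations at 0 to 5.98%. From nt 15835 to the split, native means of the windows of 100 nt were 0 to 0.564%, and synthetic means were 0.530 and 1.72%. In these libraries, then, unconverted L-strand cytosines of the ETAS part were concentrated in its upstream portion, in DNA with and without the possibility of 5mC.

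In reads mapped to the L strand, a pair of guanine-free runs of the upstream ETAS part stayed unconverted from 5 to 60 min. Over nt 15524 to 15563, a run of 40 nt with 7 cytosines, native means were 99.6 to 100% after 5 min and 97.5 to 100% after 60 min, and synthetic mtDNA had 97.9 and 99.8%. Native libraries covered 5 or 6 of these cytosines after 5 min and 4 or 5 after 60 min, and synthetic mtDNA covered 6. Over nt 15565 to 15592, 28 nt with 4 cytosines, native means were 98.5 to 100% after 5 min and 93.8 to 100% after 60 min, then on 2 to 4 covered cytosines. Shorter guanine-free runs of the ETAS part differed among themselves. Over nt 15467 to 15488, 22 nt with 6 cytosines, the covering native libraries had 91.4 to 100% from 5 to 40 min, and after 60 min none covered it and synthetic mtDNA had 89.5%. Over nt 15635 to 15657, 23 nt with 7 cytosines, native means were 95.1 to 99.1% after 5 min, and synthetic mtDNA had 99.5%. The 2 covering native libraries had 87.2 and 100% after 15 min, and ESC preparation 1, the only one after 40 min, had 53.6%. After 60 min no native library covered this run, and synthetic mtDNA had 76.8% on 6 sites. Over nt 15680 to 15700, 21 nt with 8 cytosines, native means went from 96 to 99% after 5 min to 52.2 to 78.6% after 15 min, and synthetic mtDNA from 97.4 to 40.6%. After 40 min that run had 39.85 to 70.5% in the 3 covering native libraries, on 6 to 8 sites, and 10% in synthetic mtDNA on 2. After 60 min that run had 8.30 and 34.2% in the 2 covering native libraries, on 1 and 6 sites, and 55.9% in synthetic mtDNA on 8. In the rest of mtDNA, 391 of 509 shared L-strand sites in guanine-free runs of 25 nt or more had a mean of at least 50% after 60 min (76.8%), and so did 56 of 604 sites in shorter runs (9.27%). In the ETAS part these counts were 6 of 6 and 0 of 19.

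No shared site of the CSB part stayed unconverted. None of its 4 shared sites in runs of 25 nt or more and none of its 4 in shorter runs reached 50%, although it is poorer in guanine on the L strand (7.17%) than the ETAS part (13.9%) and the rest of mtDNA (12.4%). The counts are too small for a comparison, and the 8 shared sites lie at nt 16238 to 16265, beyond the conserved sequence blocks. Over the 52 nt run with conserved sequence block 2, nt 16063 to 16114 with 23 cytosines, the 6 covering native preparations had 13.8% (brain preparation 1), 17.4% and 14.5% (liver preparations 1 and 2) and 25.9%, 6.89% and 8.21% (ESC preparations 1, 2 and 3), and synthetic mtDNA had 15.5%. Synthetic mtDNA lay within the native range, and so most cytosines of the longest guanine-free run in the control region were converted in DNA of either kind. After 5 min the same run had 54.8 to 80.8% in native and 82.0% in synthetic mtDNA.

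Within the conserved sequence blocks, which carry signals at which H-strand primers form, the L-strand rates after 60 min were highest at block 2. The 12 cytosines of block 2 (nt 16089 to 16104) had a native mean of 11% ± 4.76 (SD, n = 6) and 12.5% in synthetic mtDNA. The 7 cytosines of block 3 (nt 16114 to 16131) had 2.07% ± 1.87 (SD, n = 6; 0 to 4.46%) and 6.21% in synthetic mtDNA. At block 1 (nt 16035 to 16058), 6 native preparations with 1 or 2 covered cytosines of 3 had 0 to 10%, and synthetic mtDNA had 1.23%. In native mtDNA the order of blocks 2 and 3 was larger than their spread, as the lowest value of block 2 (5.51%) exceeded the highest of block 3, whereas block 1 overlapped with both. At the termination-associated sequences only ETAS2 (nt 15515 to 15558) was covered in native L strands after 60 min, with 95.9 to 100%.

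At the 3′ end of the CSB part the rate on the L strand went from low to high within 5 nt, and what differed was the number of converted reads. At nt 16265, the 7 native libraries together had 62 unconverted and 1565 converted reads. At nt 16270 they had 62 unconverted and 14 converted reads, so that the summed rate went from 3.81 to 81.6%. The number of unconverted reads did not fall, library by library. Brain preparation 1, for example, had 21 unconverted reads at both sites, and 370 converted reads became 6. Synthetic mtDNA had 33 unconverted and 229 converted reads at nt 16265, a rate of 12.6% (95% Wilson interval 9.11 to 17.2%), and 34 unconverted and 1 converted reads at nt 16270, a rate of 97.1% (85.5 to 99.5%). High rates at the last cytosines of the control region thus rested on few reads, 2 to 27 per native library at nt 16270, and how reads that cross the end of the linear reference were handled is not given in the sources used here.

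**Figure D3:**
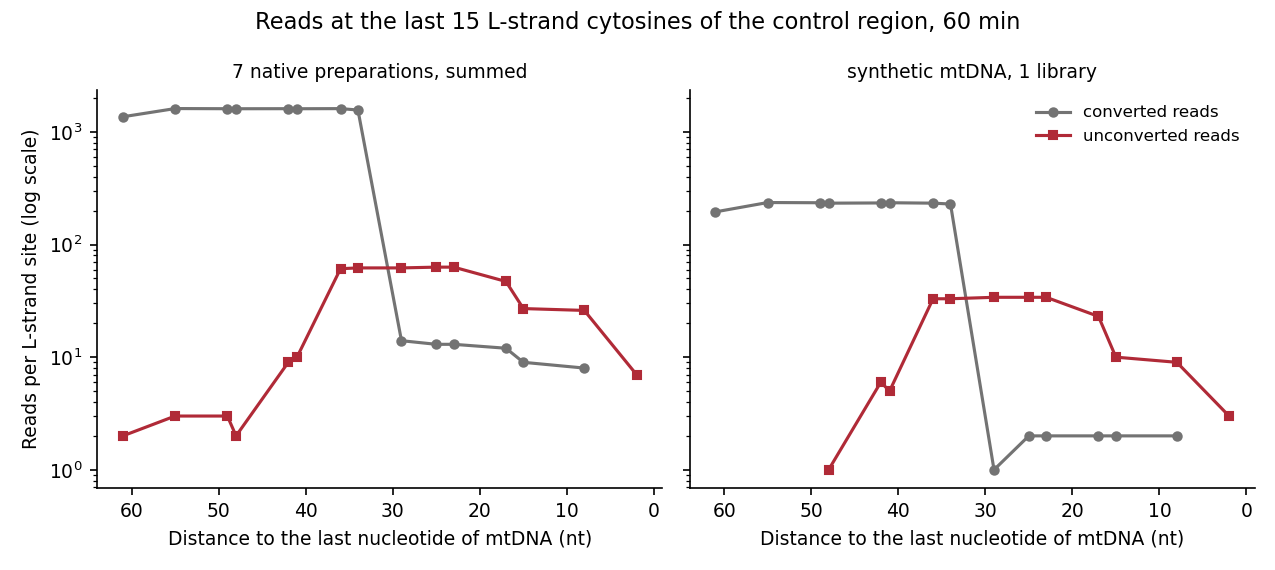
Converted (circles) and unconverted (squares) reads at the last 15 L-strand cytosines after 60 min, on a log scale, against the distance in nt to the last nucleotide of mtDNA, for the 7 native preparations summed (left) and synthetic mtDNA (right); sites with 0 reads of a kind have no symbol. Between nt 16265 and 16270 converted reads fall from 1565 to 14 in native and from 229 to 1 in synthetic mtDNA, while unconverted reads stay at 62 and go from 33 to 34.

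The H strand was converted nearly completely in both parts after 60 min. In the ETAS part the mean over 83 sites was 0.486% and 0.494% in brain preparations 1 and 2, 0.506% and 0.605% in liver preparations 1 and 2, 0.524%, 0.382% and 0.618% in ESC preparations 1, 2 and 3 and 0.425% in synthetic mtDNA. In the CSB part the mean over 16 sites was 0.125% and 0.0688% in brain, 0.244% and 0.531% in liver, 0.0875%, 0.2% and 0.781% in ESCs and 0.25% in synthetic mtDNA. The ETAS part was higher in 6 of 7 native libraries, ESC preparation 3 being the exception. The mean difference was 0.23 points (exact sign-flip permutation test, p = 0.0469, adjusted p = 0.188 over the 8 comparisons), and synthetic mtDNA differed by 0.18 points in the same direction. In 6 of the 7 fits that left out a preparation, p rose above 0.05, while the difference stayed between 0.190 and 0.290 points.

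The H-strand cytosines with the highest means were all low. In the ETAS part they were nt 15658 (2.15% over the 8 libraries), 15441 (1.84%) and 15619 (1.61%). At nt 15658 the values were 2.0% and 1.1% in brain, 1.5% and 1.8% in liver, 3.3%, 1.2% and 3.7% in ESCs and 2.6% in synthetic mtDNA, which lay inside the native range. In the CSB part the highest were nt 16226 (0.6%), 16220 (0.563%) and 16045 (0.538%, in conserved sequence block 1). Of these 6 sites, none differed between native and synthetic mtDNA (Fisher's exact test on summed reads, adjusted p = 1 for each).

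Compared with the rest of mtDNA on the same strand, both parts had lower L-strand rates after 60 min. The native mean over the rest was 40.6% ± 0.863 (SD, n = 7), and the ETAS part was lower by 16.6 points and the CSB part by 39.5 points in 7 of 7 libraries (exact sign-flip permutation test, p = 0.0156, adjusted p = 0.0313 over 4 comparisons for each). The nearest long gene, CYTB, had 66.5% ± 2.58 (SD, n = 7) on its 61 shared L-strand sites. These sites were set by brain preparation 2, and without it CYTB had 33.6 to 37.5% on 132 sites, close to the 32.9 to 34.4% of the rest of mtDNA. The differences from the rest were then -19.9 points for the ETAS part and -28.0 points for the CSB part. Without sites of 50% or more they were -2.57 and -1.72 points, and with a coverage minimum of 20 they were -44.6 and -43.7 points. On the H strand, the ETAS part differed from the rest (0.57%) by -0.0521 points, less than the spread between preparations (exact permutation p = 0.422). The CSB part was lower by 0.277 points (exact permutation p = 0.0469, adjusted p = 0.0625), a difference that lost p below 0.05 in 6 of 7 fits without a preparation.

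The comparison with synthetic mtDNA asks whether native mtDNA holds unconverted cytosines beyond those of DNA without 5mC. On the L strand of the ETAS part, native minus synthetic mtDNA after 60 min was -0.14 points (1 of 7 above 0, exact permutation test over the choice of the synthetic library, p = 0.63). In the CSB part native mtDNA was lower, by 2.66 points, in 7 of 7 preparations (exact permutation p = 0.125, the smallest that 8 preparations allow, so the design cannot reach 0.05). The widest differences among these 8 sites were at nt 16263 (native mean 3.23%, synthetic 12.4%) and nt 16265 (3.41 and 12.6%), which share reads. At nt 16238, 16244, 16250 and 16251 the summed native rates were 0.124 to 0.186%, and synthetic mtDNA had 0 to 0.4%. Without brain preparation 2, on 42 sites, the mean difference of the CSB part was -1.74 points (exact permutation p = 0.571). ESC preparation 1, at 9.97%, then lay above synthetic mtDNA at 7.67%. On the H strand the differences were 0.09 points in the ETAS part (exact permutation p = 0.5) and 0.04 points in the CSB part (exact permutation p = 1). After adjustment over 16 such comparisons, by strand, part and duration, every exact permutation p was at least 0.8. All of these differences use the same synthetic library of a duration, and with 1 synthetic preparation they do not carry its error.

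Site by site, 243 cytosines of the control region could be tested after 60 min, and 2 passed Fisher's exact test on summed reads after Benjamini-Hochberg adjustment over all 4129 mtDNA sites tested. The background was 42 of 4129 sites (1.02%), 40 of 2256 (1.77%) on the L strand and 2 of 1873 (0.107%) on the H strand. Both lie in the CSB part, on the L strand, 2 of 50 tested there (4%), and at both every native library was lower, beside 1.24% of L-strand sites called lower and 0.488% called with every covering native library lower. At nt 16265 the values were 5.4% and 2.4% in brain preparations 1 and 2, 2.3% and 3.9% in liver, 4.1%, 1.8% and 4.0% in ESCs and 12.6% in synthetic mtDNA. The native mean was 3.41% ± 1.28 (SD, n = 7), every native value lay below synthetic mtDNA, and Fisher's exact test gave an adjusted p of 4.10e-05. At nt 16263 the native values were 1.2 to 5.2%, with a mean of 3.23% ± 1.39 (SD, n = 7), against 12.4% in synthetic mtDNA (Fisher's exact test, adjusted p = 3.02e-05). These cytosines are 2 nt apart, share their reads and lie just before the fall in converted reads described above, whose part in the result was not tested. Fisher's exact test on summed reads does not carry the variation between preparations. In limma, which carries it for native mtDNA and assumes that the single synthetic library varies alike, no site of the control region passed. There, 36 of 243 had an unadjusted p below 0.05, beside 11.8% of all sites tested. The share of limma calls over all mtDNA is not given here, so their absence is not read as particular to the control region.

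No cytosine of the control region was called higher in native mtDNA, beside 0.315% of all sites tested. In the ETAS part, 0 of 89 L-strand and 0 of 85 H-strand sites were called by Fisher's exact test in either direction, with 6 and 3 at an unadjusted p below 0.05, beside 7.07% of all sites tested. After 40 min, 0 of 241 control region sites were called (Fisher's exact test, background 5 of 4127, 0.121%), and 15 had an unadjusted p below 0.05 (beside 5.02% of all sites). In limma 0 were called and 8 had an unadjusted p below 0.05 (beside 4.02% of all sites). Its share of calls over all mtDNA is not given here.

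No difference between ESCs and tissues was larger than the spread between preparations in either part. ESC minus tissue was 0.15 points on the L strand of the ETAS part (exact permutation test, 3 against 4, p = 0.457) and -0.09 points on that of the CSB part (exact permutation p = 0.857). On the H strand it was -0.01 points (exact permutation p = 1) and 0.11 points (exact permutation p = 0.629). The smallest p this design allows is 0.0571. In limma on single sites, 0 of 220 control region sites were called with a smallest adjusted p of 0.999 (background 0 of 3942 sites), 7 had an unadjusted p below 0.05, all on the H strand of the ETAS part, and the share with an unadjusted p below 0.05 over all mtDNA sites was 4.26%. Fisher's exact test on summed reads also called none of the 220 sites. Its 2 sites at an unadjusted p below 0.05 are not set against a share over all mtDNA sites.

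CG sites, where most 5mC of nuclear DNA lies, number 14 per strand in the ETAS part and 2 per strand in the CSB part. After 60 min, H-strand CG sites of the ETAS part had 0 to 2.0% in the native libraries over 98 site values, and those of the CSB part had 0 in all 10 site values. On the L strand, 13 CG sites of the ETAS part were covered in native libraries, with a median of 0 and a highest value of 33.3%, and synthetic mtDNA reached 47.6%. The highest L-strand CG value of the CSB part was 78.6% in native and 92.0% in synthetic mtDNA, at a site beyond the fall in converted reads. Cytosines outside CG ranged more widely, up to 100% on the L strand of the ETAS part.

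After 5 min of bisulfite, while conversion was in progress, the CSB part had the higher H-strand rates in native mtDNA. In the ETAS part brain preparation 1 had 27.1%, liver preparation 1 27.9%, ESC preparations 1 and 2 28.4% and 29.8%, and synthetic mtDNA 28.6%. In the CSB part they had 36.3%, 32.7%, 35.3%, 35.7% and 28.1%. The CSB part was higher in 4 of 4 native libraries, without overlap. The ETAS part minus the CSB part was -9.19 to -4.79 points in native mtDNA and 0.518 points in synthetic mtDNA. The native difference had an exact sign-flip permutation p of 0.125, the smallest that 4 preparations allow. Native minus synthetic mtDNA was 6.91 points in the CSB part (4 of 4 above 0, exact permutation p = 0.2, the smallest possible) and -0.29 points in the ETAS part (exact permutation p = 0.8).

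Set against the whole H strand after 5 min, the counts of the CSB part lay nearer to the background than those of the ETAS part, a difference that was not tested. In the CSB part, 8 of 19 H-strand sites (42.1%) had every native library above synthetic mtDNA and none had every one below, beside 45% and 8.2% over all H-strand sites. Of the 83 H-strand sites of the ETAS part, 16 (19.3%) had every native library above and 21 (25.3%) every one below. The median native minus synthetic difference was -0.43 points in the ETAS part, 4.93 points in the CSB part and 2.83 points over all H-strand sites. The widest differences of the CSB part were at nt 16175, with 59.5% in brain, 59.7% in liver, 51.2% and 58.3% in ESCs and 33.3% in synthetic mtDNA, and at nt 16283, where synthetic mtDNA was at 0 and the site had 16 to 47 reads. Both were chosen after their values were seen.

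**Figure D4:**
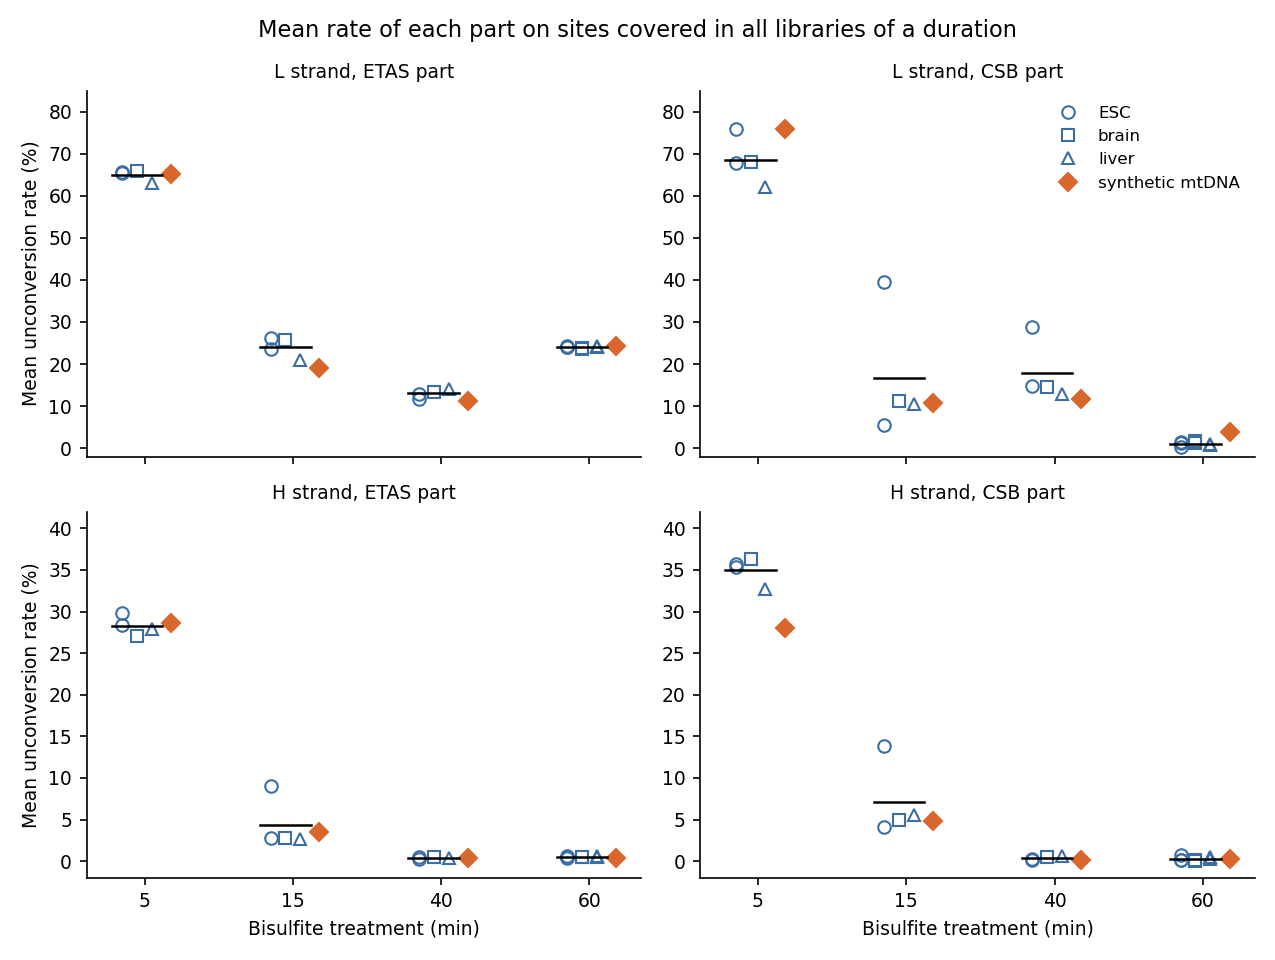
Mean unconversion rate (%) of the ETAS part (left) and the CSB part (right) after 5, 15, 40 and 60 min of bisulfite treatment on the L strand (top) and H strand (bottom), on sites covered in all libraries of a duration. Open symbols are native preparations, black lines their means and diamonds synthetic mtDNA; on the H strand of the CSB part the 4 native values after 5 min (32.7 to 36.3%) lie above synthetic mtDNA (28.1%), and ESC replicate 1 lies above the others after 15 min. The set of sites differs between durations.

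On the L strand after 5 min, the ETAS part had 63.1 to 65.9% in native and 65.1% in synthetic mtDNA over 141 sites, and the CSB part had 62.0 to 75.9% in native and 75.9% in synthetic mtDNA over 51 sites. The difference between the parts was -3.37 points and not larger than the spread (exact sign-flip permutation p = 0.25), and it turned to 11.1 points with a coverage minimum of 20. After 15 min ESC preparation 1 stood apart from the other native libraries. It had 9.05% on the H strand of the ETAS part (others 2.62 to 2.80%), 13.9% on that of the CSB part (others 4.14 to 5.51%) and 39.5% on the L strand of the CSB part (others 5.60 to 11.2%). The CSB part was higher than the ETAS part on the H strand in 4 of 4 native libraries and in synthetic mtDNA, by 2.80 points on average in native mtDNA and 2.12 points without ESC preparation 1 (4.88 against 3.51% in synthetic mtDNA).

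After 40 min the H strand was at 0.292 to 0.532% in the ETAS part and 0.121 to 0.595% in the CSB part, with synthetic mtDNA inside both ranges (0.339 and 0.142%). On the L strand the CSB part had 14.6% in brain preparation 1, 12.8% in liver preparation 1, 28.9% and 14.8% in ESC preparations 1 and 2 and 11.7% in synthetic mtDNA over 44 sites. All native values lay above synthetic mtDNA, ESC preparation 1 by the most, and 18 of the 44 sites (40.9%) had every native library above it, beside 11.3% over all L-strand sites. The mean difference was 6.04 points (exact permutation p = 0.4, smallest possible 0.2) and 2.28 points without ESC preparation 1. After 60 min the order was the opposite on the 8 shared sites, as given above.

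The reads themselves were unevenly spread over the parts. Relative coverage, the mean coverage of all listed cytosines of a part over that of the same strand outside the control region, was 0.772 to 1.48 on the H strand of the ETAS part and 0.251 to 0.566 on that of the CSB part after 60 min. The ratio of the parts was 1.84 and 5.89 in brain preparations 1 and 2, 1.95 and 2.51 in liver, 1.84, 1.67 and 2.42 in ESCs and 2.44 in synthetic mtDNA. Brain preparation 2 was far above the rest, which enclosed synthetic mtDNA. The native mean was 1.23 on the log2 scale (7 of 7 above 0, exact sign-flip permutation p = 0.0156, adjusted p = 0.281 over 18 comparisons of coverage) and did not differ from synthetic mtDNA beyond the spread (log2 difference -0.06, exact permutation p = 0.875).

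At shorter durations the H-strand ratio was higher in native than in synthetic mtDNA in every library. After 5 min it was 3.38 in brain, 4.43 in liver, 5.00 and 4.45 in ESCs and 2.43 in synthetic mtDNA. After 15 min it was 3.83 in brain, 3.85 in liver, 4.11 and 3.20 in ESCs and 2.29 in synthetic mtDNA, and after 40 min 2.75, 5.72, 5.96, 2.93 and 2.12. The log2 differences from synthetic mtDNA were 0.81, 0.71 and 0.94, with native above synthetic in 4 of 4 libraries each time (exact permutation p = 0.2 for each, the smallest possible). With the median in place of the mean coverage the difference after 5 min was -0.05. Over the alternatives, the log2 difference ranged from 0.067 to 0.61 after 15 min and from 0.32 to 1.03 after 40 min. In all libraries the H-strand coverage peaked over nt 15635 to 15734, where native libraries had 4.37 to 5.15 times the mean outside the control region after 5 min and synthetic mtDNA 3.48 times. The peak lies beside a low over nt 15535 to 15634 (0.149 to 0.201 in native and 0.205 in synthetic mtDNA), so that much of the unevenness was common to DNA with and without a native origin. Extra H-strand DNA in native preparations and uneven recovery of converted fragments cannot be told apart in these values.

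**Figure D5:**
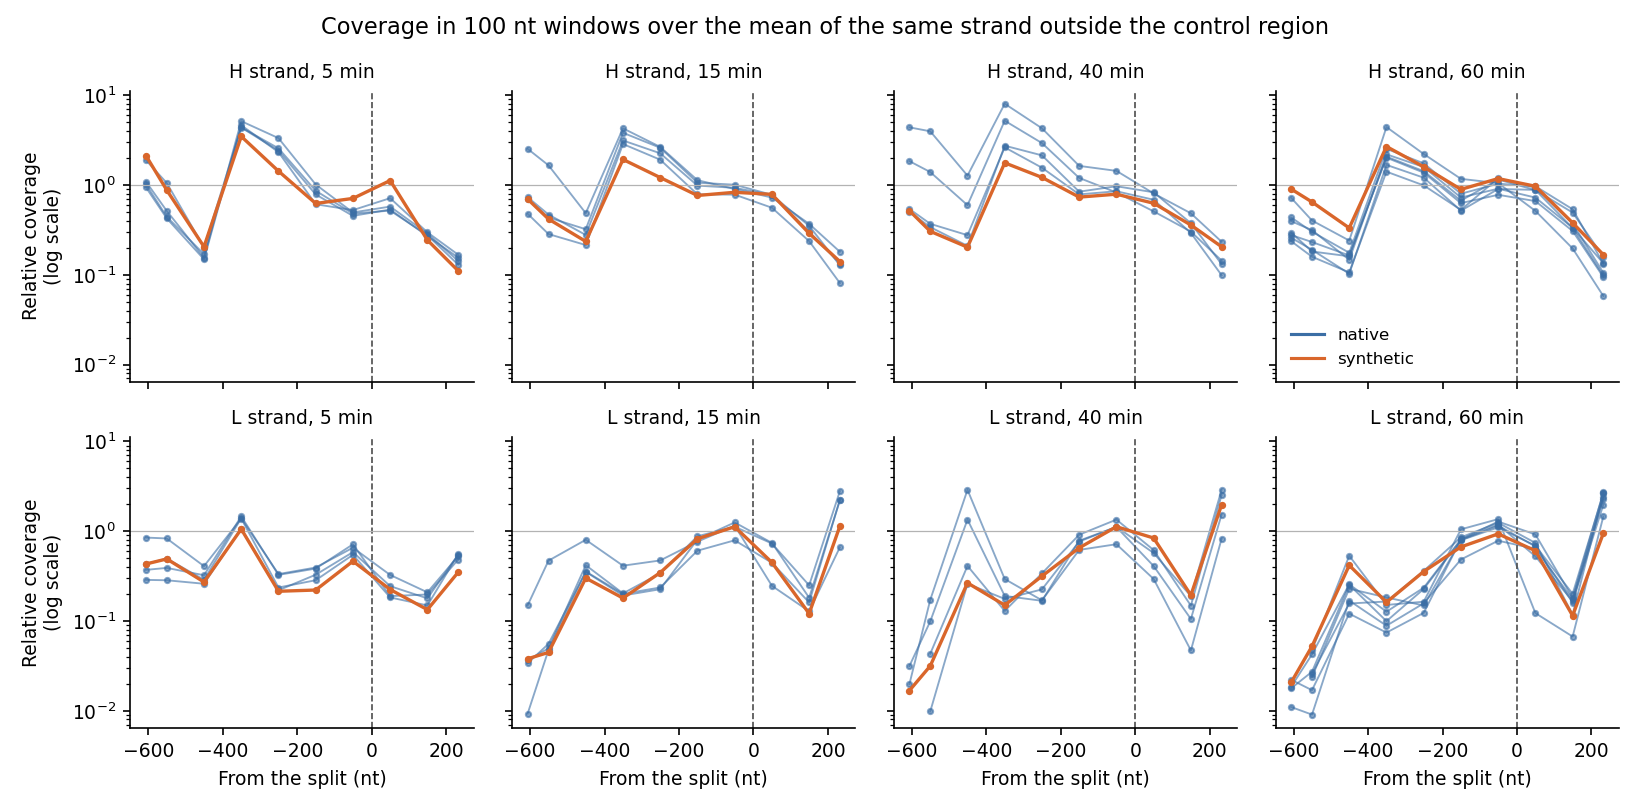
Relative coverage on a log scale in windows of 100 nt counted from the split (dashed line), the outermost windows being shorter, for the H strand (top) and L strand (bottom) after 5, 15, 40 and 60 min, with thin lines for native preparations and thick lines for synthetic mtDNA. After 5 min the H-strand peak of the ETAS part reaches 4.37 to 5.15 in native and 3.48 in synthetic mtDNA, and after 60 min the L-strand windows up to the beginning of ETAS2 lie under 0.1 in every library.

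L-strand coverage had the opposite course. After 5 min the ETAS part had 1.80 to 2.74 times the relative coverage of the CSB part in native mtDNA and 2.25 times in synthetic mtDNA. After 60 min the ratio was 0.315 and 1.29 in brain preparations 1 and 2, 0.45 and 0.413 in liver, 0.470, 0.511 and 0.403 in ESCs and 0.760 in synthetic mtDNA. It was below 1 in 6 of 7 native libraries, brain preparation 2 being the exception (mean log2 ratio -1.01, exact sign-flip permutation p = 0.0313, adjusted p = 0.281). In 6 of the 7 fits that left out a preparation the unadjusted p rose above 0.05. It also did so without sites within 50 nt of the split or the ends, where the log2 ratio was -0.42. The lowest coverage lay in the first portion of the ETAS part. Over nt 15435 to 15534, with ETAS1, native libraries had 0.00906 to 0.0474 times the mean outside the control region and no native rate could be given.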

How the data were processed

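Reads came from a MiSeq. The authors trimmed first reads with Trim Galore, mapped them to mouse mtDNA (chrM, mm10) with Bismark using default parameters and the option for PBAT libraries, and scored cytosines with Perl scripts. The versions used for these libraries are not given in the sources used here. The deposited percent is the share of covering reads with an unconverted cytosine, to 1 decimal, and the deposited coverage is a count of reads per cytosine, not normalized. Both were taken as deposited, and 0 columns of per-sample values were left unused. Unconverted reads were recovered as percent times coverage, rounded.

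All 24 libraries were grouped by their labels, and 0 of 276 library pairs held identical coverage of the control region. Sites needed a coverage of 10, and a rate is the mean over sites. The parts were compared within libraries by exact sign-flip permutation tests, and groups by exact permutation tests over preparations, all two-sided. Single sites were tested over all mtDNA by Fisher's exact test on summed reads (native against synthetic) or by limma 3.58.1 in R 4.3.3 on the empirical logit with offset 0.5 (ESC against tissue), called at a Benjamini-Hochberg adjusted p under 0.05. Other steps used Python 3.11.15, scipy 1.17.1 and pandas 2.3.3. The site tests were tested on simulated data. Sites named are those called on the same side in every covering native preparation and, per strand and part, the 3 with the highest mean over the 8 libraries of 60 min, ties by position. CG sites are given as a group. Alternatives were a coverage minimum of 20 or 1, each library's own sites, pooling of reads, leaving out sites at or above 50%, median coverage, sites near the ends left out, other tests, the replicate block and each preparation left out. Elements and sequences are from RefSeq (GRCm38). The region, its split and the tests were chosen with earlier results of these data known. The deposited values appear to hold reads with nearly all cytosines unconverted, which the study left out and which cannot be removed per read here.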

Additional observations from a re-analysis of the deposited data

Results flagged for a closer look

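Of 24 groups of 4 or 7 native libraries tested for a library far from the others, 8 held one. Chance flags about 1 in 20 groups, and results on the same libraries are not independent. ESC replicate 1 accounted for 5 of them. After 15 min it was the highest on the H strand of the ETAS part (9.05%, others 2.62 to 2.80%), on the H strand of the CSB part (13.9%, others 4.14 to 5.51%) and on the L strand of the CSB part (39.5%, others 5.60 to 11.2%). Its L-strand log2 ratio of relative coverage, ETAS part over CSB part, was 1.08 after 15 min, against -1.11 to -0.96 in the others. After 40 min, in a separate reaction of the same preparation, it was highest on the L strand of the CSB part (28.9%, others 12.8 to 14.8%).

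Brain replicate 2 after 60 min stood apart in the log2 ratio of relative coverage on both strands. It had 2.56 on the H strand (others 0.74 to 1.33) and 0.37 on the L strand (others -1.67 to -0.97). Liver replicate 1 after 5 min was lowest on the L strand of the ETAS part (63.1%, others 65.5 to 65.9%).

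After 5 min the H-strand difference of the ETAS part minus the CSB part was 0.518 points in synthetic mtDNA and -9.19 to -4.79 points in the 4 native libraries, so that every native library moved against the synthetic one. With 1 synthetic library, this difference was not tested.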

How the results depend on the processing

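Of 349 values recomputed under an alternative, 292 kept their direction and side of the threshold, 22 lost p below 0.05 and 35 changed sign. For exact permutation tests against synthetic mtDNA, between ESCs and tissues or between the parts before 60 min, no p below 0.05 was possible. Their side of the threshold could thus not change. For counts of called sites, a similar count was taken as kept. With a coverage minimum of 20 the L-strand difference ETAS part minus CSB part became -0.832 points after 60 min, 11.1 after 5 min and 14.8 after 40 min, and native minus synthetic in the ETAS part became 0.762 after 5 min and -0.244 after 40 min. On each library's own sites the L-strand difference of the parts was 5.35 points after 60 min (p above the threshold, exact permutation test) and 0.431 after 40 min, ESC minus tissue was -8.36 (L strand, ETAS part), 0.691 (L strand, CSB part) and 0.0131 (H strand, ETAS part), and native minus synthetic on the L strand of the ETAS part after 5 min was 0.276. With reads pooled over sites the L-strand difference of the parts was 17.0 after 5 min and 14.5 after 40 min, ESC minus tissue was -3.12 (L strand, ETAS part) and -0.0209 (H strand, CSB part), and the H-strand difference from the rest of mtDNA was 0.0831 (ETAS part) and -0.139 (CSB part). Without sites of 50% or more the L-strand difference of the parts after 60 min was -0.845. Median coverage gave -0.0475 for the H-strand log2 ratio of native over synthetic mtDNA after 5 min. Without sites within 50 nt of the split or ends, the L-strand log2 ratio of coverage was -0.42 after 60 min (no longer called), 0.31 after 40 min and 0.0077 after 15 min, and its difference from synthetic mtDNA after 5 min was -0.0074. limma called 0 sites of native against synthetic mtDNA where Fisher's exact test on summed reads called 2. The cause was not tested for any of these.

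Leaving out each preparation in turn gave ranges after 60 min of 0.190 to 0.290 points for the H-strand difference of the parts, -0.347 to -0.199 for the H strand of the CSB part minus the rest, -0.0406 to 0.103 for native minus synthetic there, -0.749 to 0.244 for ESC minus tissue on the L strand of the CSB part, -0.0696 to 0.0485 and -0.0984 to 0.248 on the H strands of the ETAS and CSB parts. The H-strand log2 coverage ratio of native over synthetic mtDNA ranged from -0.276 to 0.0273, the L-strand log2 ratio of the parts from -1.24 to -0.90 and its ESC minus tissue difference from -0.44 to 0.24. An alternative chosen after the data were seen left out ESC replicate 1 after 15 min, which gave native minus synthetic differences of -0.783 (H strand, ETAS part), -0.0246 (H strand, CSB part) and -1.39 (L strand, CSB part). The tests of native against synthetic mtDNA at the shorter durations and the 40 min fits without ESC replicate 1 or liver replicate 1 were added in the same way.

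Replicate numbers were not taken to pair the samples, and the labels do not say whether same-numbered preparations were handled together. Deviations of same-numbered libraries from their group means correlated at -0.184 to 0.189 over 2902 sites, which cannot decide this. Brain and liver have 2 preparations each, so their correlation of 0.189 is necessarily the same for both numbers. With the replicate block, ESC minus tissue on the H strand of the CSB part was -0.0984 (exact permutation p = 0.667), and the other 6 results so fitted kept their direction and call. Coverage limits the L strand, where the floor of 3 reads is 7.89% or more in the ETAS part, and the single synthetic library limits every comparison with it.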

Other observations

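ESC preparation 3 was the only sample treated for 90 min and entered no comparison. Its L-strand mean was 0.282% over 22 covered sites of the ETAS part and 7.80% over 8 sites of the CSB part. None of the 6 cytosines of the guanine-free runs that stayed unconverted elsewhere reached a coverage of 10 in this library. Its H-strand means were 0.782% over 83 sites of the ETAS part and 1.1% over 18 sites of the CSB part.

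The last L-strand cytosine of the ETAS part, nt 16033, had 0 to 3.4% in 5 native preparations after 60 min and 8.1% in synthetic mtDNA, and the 1st of the CSB part, nt 16042, had 0 to 3.8% and 3.7%. On the H strand, nt 16032 had 0 to 0.8% and 0.1%, and nt 16045 had 0 to 1.3% and 0.3%.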
